A study of Mus musculus with 22 samples.

Results

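The cytochrome P450 genes of the mouse kidney were examined as 1 family in young mice, old mice and old mice fed nicotinamide. Entries of the count table were taken whose mouse symbol is Cyp followed by a number, letters and a number. Pseudogenes were left out, as were Cyp24a1 and Cyp27b1, which handle active vitamin D. Of 131 symbols that begin with Cyp and a number, 97 met the rule, out of 55487 gene entries in all. The 5 members with a further letter after the last number (such as Cyp4a12a) were counted in, and Cyp51 and the antisense gene Cyp4x1os were counted out. Of the 97 members, 67 had at least 1 read in the 22 kidneys, and 35 had enough reads to be tested.

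Cytochrome P450 enzymes carry a haem group and insert oxygen into small lipophilic molecules, taking electrons from cytochrome P450 reductase in the endoplasmic reticulum or from ferredoxin in mitochondria. In the kidney many of them are found in the proximal tubule. The Cyp4 enzymes hydroxylate fatty acids and arachidonic acid, several Cyp2c and Cyp2j enzymes make epoxides of arachidonic acid that act on vessels and on sodium transport, and others handle steroids, bile acids, retinoic acid, drugs and toxicants. Several mouse P450 genes, among them members of the Cyp2a, Cyp2d, Cyp4a and Cyp7b groups, are known to differ between male and female animals.

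All mice were wild-type C57BL/6JRj males. Young mice were 4 months old (n = 6) and old mice 21 months (n = 8), both labelled as controls. A further 8 old mice had nicotinamide, the amide form of vitamin B3, in their food for 14 weeks (1.6 g per kg of food, giving 200 mg per kg of body weight daily). Libraries read the 3′ ends of polyadenylated kidney RNA, 1 library per animal. The spread within a group thus holds differences between animals, tissue pieces and library preparation, which cannot be told apart. Depth was 3351065 to 8319865 gene counts per library, and the members took 0.363% to 0.588% of them. Levels are counts per 1000000 (CPM) after scaling of library sizes, given as mean ± SD; they were not divided by length, since a 3′ library gives a transcript about the same chance of a read whatever its length. In bulk tissue, fewer cells of a type and less RNA per cell cannot be told apart.

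The markers of S1 and S2 proximal tubule summed to between 3423 and 8073 CPM in every kidney, so these defining markers of the labelled tissue were present. The 5 adrenal markers summed to at most 6.74 CPM, with the adrenal master regulator Nr5a1 at 0 counts throughout. Old nicotinamide-fed replicate 1 stood apart. It was the lowest or highest of all 22 kidneys for 11 of the 35 tested members (31.4%, against 15.9% of all 14683 tested genes), of which 9 were lowest. It also had the lowest sum of the S1 and S2 markers (3423 CPM) and of the S3 markers (2086 CPM), and the highest sum of the 5 adipocyte markers (685 CPM, against at most 231 CPM in the untreated old kidneys) and of the 6 stromal markers (548 CPM, against at most 517 CPM). Its sum of the 6 urothelial markers (106 CPM) was close to that of the highest untreated old kidney (99.6 CPM). Whether these bear on its P450 levels was not tested, and calls and correlations that change without it are given both ways.

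Few members made up most of the P450 reads. Cyp2j5, an arachidonic acid epoxygenase of the proximal tubule, and Cyp4b1, which hydroxylates fatty acids and activates some toxicants, together held 54.9% ± 0.961 (SD) of the summed member CPM in young, 51.4% ± 1.57 in old and 49.2% ± 1.47 in nicotinamide-fed kidneys. Averaged over all kidneys, 11 members held 90.8%. After Cyp2j5 and Cyp4b1 these were Cyp2e1, Cyp4a12a, Cyp4a31, Cyp2a4, Cyp2j13, Cyp2d12, Cyp2d9, Cyp4a10 and Cyp7b1. The summed level of all members was 5658 ± 408 CPM in young kidneys (5075 to 6131), 4902 ± 489 in old kidneys (3935 to 5454) and 4832 ± 815 in nicotinamide-fed kidneys (3171 to 5826), with overlap between every pair of groups. Leaving out Cyp2j5 and Cyp4b1, the sums were 2549 ± 185, 2380 ± 204 and 2445 ± 379 CPM. The 20 Cyp4 members summed to 2608 ± 203 CPM in young (2406 to 2883) and 1883 ± 274 CPM in old kidneys (1370 to 2286). Nicotinamide-fed kidneys had 1918 ± 397 CPM (1135 to 2381), so in this sum both old groups lay below every young kidney. The 48 family 2 members other than Cyp2r1 summed to 2853 ± 226, 2812 ± 207 and 2719 ± 411 CPM, with overlapping groups. No sum was tested.

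The first comparison asked how the family differs between old and young kidneys. Of the 35 tested members, 5 passed an adjusted p of 0.05 in edgeR (14.3%, where 7.04% of all tested genes passed). The 4 that rose were Cyp2c23, Cyp2d12, Cyp2a5 and Cyp1b1 (3.90% of all genes rose), and the 1 that fell was Cyp2d26 (3.15% of all genes fell). At an unadjusted p below 0.05 there were 13 members (37.1%), against 20.7% of all genes. The median log2 fold change of the members was 0.03, beside 0.01 for all tested genes. In 3 members the old and young kidneys did not overlap (8.57%, where 2.64% of all genes did not overlap). Each of the 5 called genes belongs to family 1 or 2, which hold 1 and 17 of the 35 tested members. Some alternative fits, given below, also called the family 4 genes Cyp4a12a and Cyp4b1.

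Cyp2c23 encodes an epoxygenase that is regarded as the main source of arachidonic acid epoxides in rodent kidney. Its level was 9.01, 16.1 and 23.7 CPM (lowest, median and highest) in young kidneys, 32.2, 36.7 and 45.3 CPM in old kidneys and 24.9, 30.2 and 49.9 CPM in nicotinamide-fed kidneys. The 8 old kidneys and the 8 nicotinamide-fed kidneys all lay above the highest young kidney. The rise from young to old was 2.38-fold (log2 fold change 1.25 ± 0.18 SE, edgeR adjusted p = 2.61e-05), from 15.7 ± 5.28 to 37.2 ± 4.70 CPM.

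Cyp2d12 belongs to a cluster of Cyp2d genes whose products oxidise steroids and many drugs. Young kidneys had 66.8, 112 and 131 CPM (lowest, median, highest) and old kidneys 183, 203 and 269 CPM, with no overlap. The rise was 2.08-fold (1.06 ± 0.18 on the log2 scale, edgeR adjusted p = 0.00135). Its relative Cyp2d9, a testosterone hydroxylase of male mice, went from 117 ± 28.2 to 160 ± 29.6 CPM with overlapping groups and did not pass (0.46 ± 0.18, edgeR adjusted p = 0.152). Of the 50-base words in the last 400 bases of the Cyp2d12 transcripts, 18.2% also occur in another gene, most often Cyp2d9, so some reads could be placed in either or be lost. Cyp2d26 moved the other way. Its young kidneys had 41.1, 58.5 and 73.5 CPM and its old kidneys 28.2, 32.7 and 43.2 CPM; 6 of the 8 old kidneys lay below every young kidney. The fall was 1.64-fold (−0.71 ± 0.13, edgeR adjusted p = 0.000646). Cyp2d26 shares 33.0% of its end words, most with Cyp2d40, and Cyp2d9 shares 26.8%, most with the pseudogene Cyp2d41-ps.

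Cyp2a5 hydroxylates coumarin and nicotine and takes part in the oxidation of bilirubin. Young kidneys had 15.5, 30.3 and 37.3 CPM (lowest, median, highest), old kidneys 44.7, 69.5 and 90.5 CPM and nicotinamide-fed kidneys 27.9, 68.7 and 128 CPM. No old kidney reached down to the young range, and 7 of the 8 nicotinamide-fed kidneys lay above every young kidney. The rise from young to old was 2.40-fold (1.26 ± 0.30, edgeR adjusted p = 0.0159). Its relative Cyp2a4, a testosterone hydroxylase with a nearly identical protein, had 161 ± 30.6 CPM in young and 201 ± 18.2 CPM in old kidneys, with 5 of 8 old kidneys above every young kidney, and did not pass (0.32 ± 0.15, edgeR adjusted p = 0.216).

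Cyp2a4 and Cyp2a5 are close copies also outside the coding sequence. The 250 bases before each start, from RefSeq on GRCm38.p6, lie at chr7:26306942-26307191 for Cyp2a4 and chr7:26835089-26835338 for Cyp2a5, both on the plus strand, and agree in 98.4% of 249 aligned bases. They are shown because the pair is so alike while its members were counted at different levels; the capitals mark the 4 bases that differ between them.
Cyp2a4: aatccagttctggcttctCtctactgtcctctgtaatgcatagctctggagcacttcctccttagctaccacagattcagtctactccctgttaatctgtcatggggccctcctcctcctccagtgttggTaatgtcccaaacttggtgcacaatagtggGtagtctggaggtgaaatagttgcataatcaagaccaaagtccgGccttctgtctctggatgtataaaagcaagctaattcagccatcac
Cyp2a5: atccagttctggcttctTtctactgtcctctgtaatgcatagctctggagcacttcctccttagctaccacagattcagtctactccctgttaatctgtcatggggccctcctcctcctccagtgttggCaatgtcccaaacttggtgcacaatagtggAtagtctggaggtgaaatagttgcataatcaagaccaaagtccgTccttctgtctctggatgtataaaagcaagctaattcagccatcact
At the 3′ end, where the reads fall, the pair is easier to tell apart in Cyp2a5 (2.56% of its end words occur in another gene) than in Cyp2a4 (33.3%). Within single kidneys the level of Cyp2a5 over that of Cyp2a4 was 0.174 ± 0.0276 in young (0.127 to 0.201), 0.332 ± 0.0691 in old (0.229 to 0.447) and 0.295 ± 0.0885 in nicotinamide-fed kidneys (0.156 to 0.444). The young and old ranges of this ratio do not overlap; it is given with no test, since the pair was chosen after its values were seen.

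Cyp1b1 metabolises polycyclic hydrocarbons and oestradiol and in many tissues is expressed in vessels and stroma. Young kidneys had 9.57, 14.1 and 17.9 CPM (lowest, median, highest) and old kidneys 17.1, 19.4 and 23.6 CPM, with 5 of 8 old kidneys above every young kidney. The rise was 1.41-fold (0.50 ± 0.15, edgeR adjusted p = 0.0364). The call was lost in 10 of 33 alternatives, among them leaving out young replicate 1, 2, 4 or 5 or old replicate 1, 2, 7 or 8 (adjusted p up to 0.131). The other family 1 genes had too few reads to test, Cyp1a1 with 44 reads over all kidneys. Of 6 stromal markers 5 also rose in old kidneys (Col1a1, Col1a2, Col3a1, Dcn and Pdgfra, median log2 fold change 0.76), where 3.90% of all genes rose. The 6 summed to 184 to 315 CPM in young and 325 to 517 CPM in old kidneys. Of 8 macrophage markers 7 rose (median 1.44). Their part in the Cyp1b1 result was not tested.

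The upstream 250 bases of Cyp1b1 (chr17:79715062-79715311, minus strand) and Cyp2d26 (chr15:82794246-82794495, minus strand), from RefSeq on GRCm38.p6, are shown because these genes were called in opposite directions between old and young kidneys. Capitals mark a match, on either strand, to the core GCGTG of the aryl hydrocarbon receptor motif in Cyp1b1 and to TATAAA in Cyp2d26.
Cyp1b1: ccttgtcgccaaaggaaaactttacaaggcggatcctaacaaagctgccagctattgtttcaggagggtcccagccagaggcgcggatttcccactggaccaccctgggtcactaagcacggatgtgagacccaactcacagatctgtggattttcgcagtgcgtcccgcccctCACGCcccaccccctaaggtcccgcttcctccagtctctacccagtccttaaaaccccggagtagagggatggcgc
Cyp2d26: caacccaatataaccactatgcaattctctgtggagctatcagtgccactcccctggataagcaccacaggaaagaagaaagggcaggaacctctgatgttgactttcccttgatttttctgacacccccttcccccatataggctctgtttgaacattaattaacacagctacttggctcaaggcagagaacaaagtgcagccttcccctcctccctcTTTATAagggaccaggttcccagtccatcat
GCGTG occurs in 28.2% of the 32851 upstream regions in the table and in 6 of the 22 tested members that have one. TATAAA occurs in 12.4% of all regions and in 7 of those 22 members, including Cyp2a4, Cyp2a5, Cyp2d9, Cyp2e1 and Cyp2j5. AGGTCA, the half-site of many nuclear receptors, occurs in 14.0% of all regions and in 2 of the 22 members, Cyp2f2 and Cyp2j5. Both strands were searched, none of the 3 motifs contains another, and a match describes only the letters of this window.

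**Figure D1:**
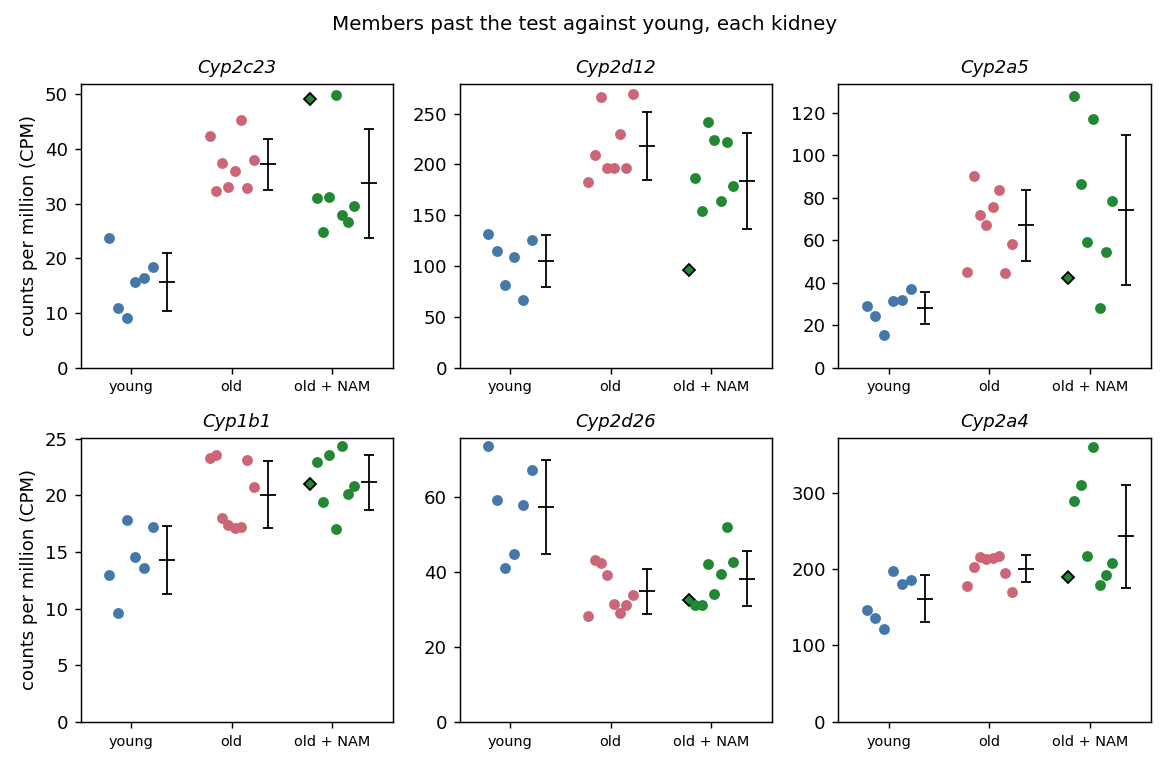
Level in CPM (vertical axes from 0) of Cyp2c23, Cyp2d12, Cyp2a5, Cyp1b1, Cyp2d26 and Cyp2a4, 6 members that passed against young kidneys in at least 1 comparison; each point is a kidney, bars are mean ± SD, and the black-edged diamond is nicotinamide-fed replicate 1 (NAM, nicotinamide). For Cyp2c23 every old and nicotinamide-fed kidney lies above 23.7 CPM, the highest young value.

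The abundant epoxygenase Cyp2j5 did not pass between old and young kidneys. Its level was 1485 ± 63.4 CPM in young and 1372 ± 95.3 CPM in old kidneys (−0.11 ± 0.08, edgeR adjusted p = 0.429). Cyp2e1, which oxidises ethanol and small toxicants, had 505 ± 82.7 CPM in young kidneys (396 to 635) and 402 ± 54.7 CPM in old kidneys (297 to 471), an overlapping difference that did not pass (−0.33 ± 0.13, edgeR adjusted p = 0.116). Of the end words of Cyp2e1, 24.2% occur in another gene, most often Fcho2. Cyp2j13, a relative of Cyp2j5, had 239 ± 51.6 and 180 ± 26.3 CPM (−0.41 ± 0.20, edgeR adjusted p = 0.242), and Cyp2j11 74.3 ± 9.75 and 75.7 ± 7.78 CPM. The other members of family 2 that were tested, including Cyp2j6, Cyp2d22, Cyp2s1 and Cyp2u1, did not pass.

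None of the 12 tested Cyp4 genes, the fatty acid and eicosanoid hydroxylases, passed between old and young kidneys in the comparison as fitted. They are 12 of 20 members of that group, and 15 have a read. The summed level of the group, given above, was lower in every old kidney than in any young kidney. The members of lowest p were Cyp4a12a and Cyp4b1, which are also abundant, while Cyp4f16 and Cyp4f18 had larger fold changes than Cyp4b1 at low levels (0.84 ± 0.58 and 0.65 ± 0.63, group means of at most 2.47 CPM). Cyp4b1 had 1374, 1621 and 1891 CPM (lowest, median, highest) in young kidneys and 749, 1141 and 1505 CPM in old kidneys, and 7 of the 8 old kidneys lay below every young kidney (−0.50 ± 0.18, edgeR adjusted p = 0.105). Cyp4a12a, a male-predominant arachidonic acid hydroxylase whose product constricts renal vessels, had 333, 532 and 604 CPM in young kidneys and 193, 292 and 347 CPM in old kidneys, again with 7 of 8 below every young kidney (−0.84 ± 0.28, edgeR adjusted p = 0.0808). Its near copy Cyp4a12b had 16.4 ± 6.55 and 13.0 ± 2.99 CPM; the pair shares 47.6% of its end words, so reads of the 2 cannot be fully separated. Cyp4a31 had 260 ± 34.6 and 227 ± 30.6 CPM, and Cyp4a10, a target of the fatty acid receptor PPARα, 139 ± 31.1 and 138 ± 25.5 CPM.

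All 22 libraries shared 1 estimate of the spread, so a nicotinamide-fed kidney also bears on the test of old against young. Without nicotinamide-fed replicate 1, 9 members passed between old and young kidneys (8.96% of all genes), adding Cyp4a12a (adjusted p = 0.00373), Cyp4b1 (0.0116), Cyp2e1 (0.0353) and Cyp2j13 (0.0281), all lower in old kidneys, while their log2 fold changes stayed at −0.85, −0.50, −0.34 and −0.42. That kidney had 68.2 CPM of Cyp4a12a, 510 CPM of Cyp4b1, 269 CPM of Cyp2e1 and 76.5 CPM of Cyp2j13, each the lowest of all kidneys. With only the young and old libraries in the fit, 10 members passed (10.1% of all genes), the same 9 and Cyp2a4, which rose. Without 4 kidneys that earlier results set apart or found shallowest (young replicate 6, old replicate 7, nicotinamide-fed replicates 1 and 7), 10 passed (7.05% of all genes), those 9 and Cyp2d9. Cyp4a12a also passed with DESeq2 (adjusted p = 0.0397) and limma-voom (0.0423), and Cyp4b1 with limma-voom (0.0391). Both passed in edgeR without robust dispersions (adjusted p = 0.0168 for Cyp4a12a and 0.0358 for Cyp4b1).

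**Figure D2:**
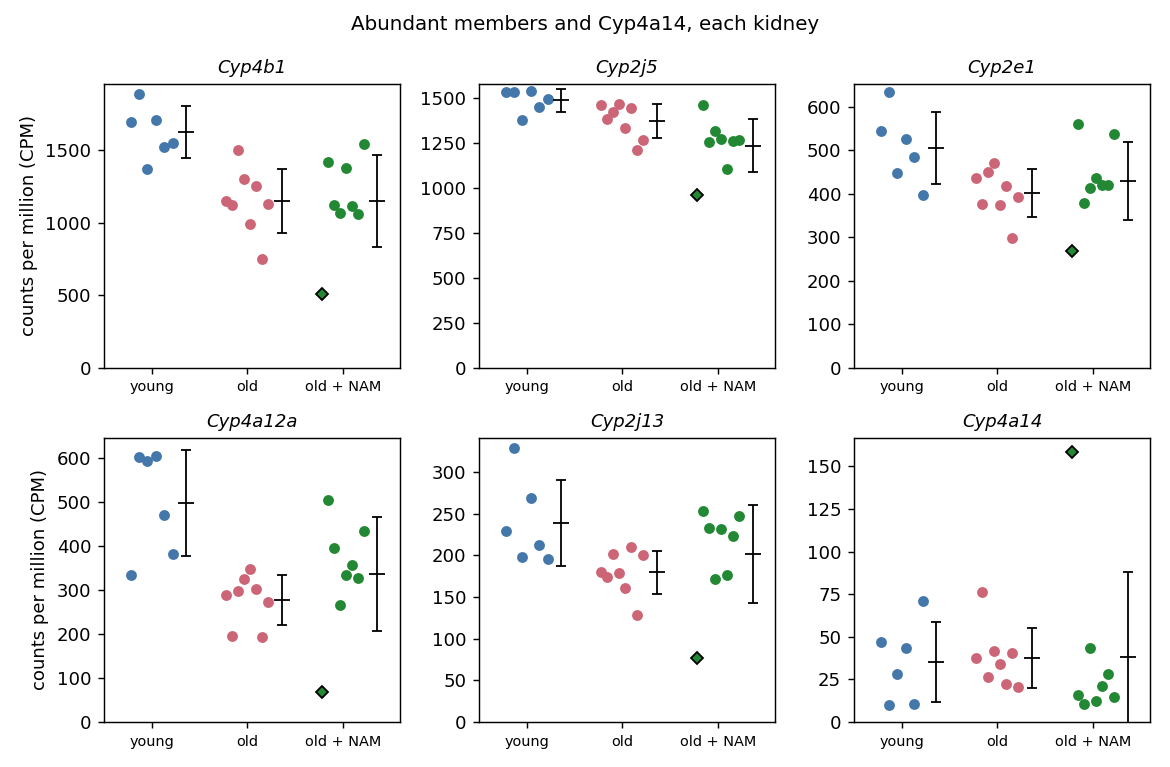
Level in CPM (vertical axes from 0) of Cyp4b1, Cyp2j5, Cyp2e1, Cyp4a12a, Cyp2j13 and Cyp4a14; each point is a kidney, bars are mean ± SD (the lower bar of Cyp4a14 with nicotinamide, NAM, is cut at 0), and the black-edged diamond is nicotinamide-fed replicate 1. For Cyp4b1, 7 of the 8 old kidneys lie below the lowest young kidney, and the diamond is the lowest kidney of all.

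Among sterol and bile acid hydroxylases, none of the 3 tested members (Cyp7b1, Cyp27a1 and Cyp39a1) passed. Cyp7b1, an oxysterol and steroid hydroxylase that is higher in male than in female kidney, had 94.1 ± 19.7 CPM in young and 80.4 ± 16.8 CPM in old kidneys (−0.23 ± 0.22, edgeR adjusted p = 0.624). Cyp26b1, which breaks down retinoic acid, varied widely between animals: 3.45 to 104 CPM in young kidneys, 14.2 to 130 CPM in old and 8.41 to 68.9 CPM in nicotinamide-fed kidneys (0.52 ± 0.59 between old and young, edgeR adjusted p = 0.689).

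The second comparison asked whether nicotinamide changed the family in old kidneys. None of the 35 tested members passed in edgeR; 4 of all 14683 genes did (0.0272%, with 0.0136% upward and 0.0136% downward). DESeq2 and limma-voom called 0 members too (0.0681% and 0.0204% of all genes), and each of the 33 alternatives left the count at 0. At an unadjusted p below 0.05 there were 3 members (8.57%), beside 6.18% of all genes. The members' median log2 fold change was 0.00, beside 0.01 for all genes. No member had groups that did not overlap, where 0.0272% of all genes did not overlap. Cyp2u1, a fatty acid hydroxylase, had the lowest p. It had 12.7 to 25.3 CPM in old and 8.11 to 16.0 CPM in nicotinamide-fed kidneys (−0.44 ± 0.16, edgeR adjusted p = 0.620). The other members under an unadjusted 0.05 were Cyp2j5, at 1372 ± 95.3 and 1234 ± 148 CPM (−0.15 ± 0.07, edgeR adjusted p = 0.776), and Cyp2a4, at 201 ± 18.2 and 243 ± 67.4 CPM (0.28 ± 0.13, edgeR adjusted p = 0.801). Cyp4a10 was 138 ± 25.5 and 114 ± 24.8 CPM (edgeR adjusted p = 0.807). The values cannot show that nicotinamide leaves the family unaltered: the SE of a log2 fold change in these 35 members was 0.07 for Cyp2j5 but 0.54 for Cyp26b1, 0.55 for Cyp4a14 and up to 0.60 for Cyp2j7.

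**Figure D3:**
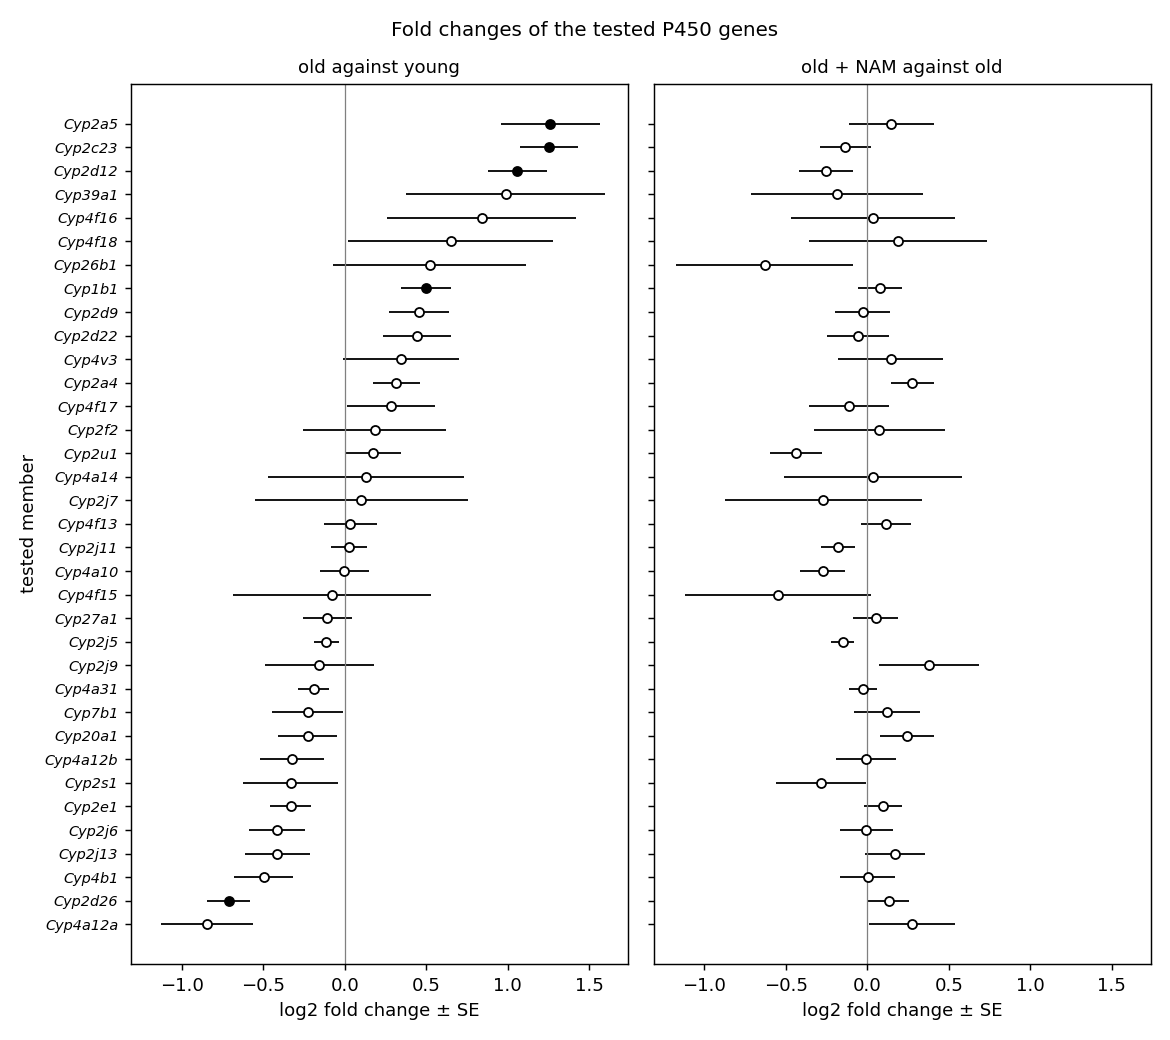
Log2 fold change (horizontal axes) with its SE for each of the 35 tested members in old against young kidneys and in nicotinamide-fed (NAM) against old kidneys, ordered by the first; filled points have an edgeR adjusted p below 0.05. There are 5 filled points between old and young kidneys and 0 between nicotinamide-fed and old kidneys.

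The third comparison sets nicotinamide-fed old kidneys against young ones and shares its libraries with both others, so it is no independent check of them. Of the 35 tested members 7 passed (20.0%, where 8.70% of all genes passed), 5 upward (4.73% of all genes) and 2 downward (3.96%). Of the 5 genes called between old and young kidneys, the values here were 1.12 ± 0.18 for Cyp2c23 (edgeR adjusted p = 0.000104), 0.81 ± 0.18 for Cyp2d12 (0.00804), 1.41 ± 0.30 for Cyp2a5 (0.00646), 0.57 ± 0.15 for Cyp1b1 (0.0121) and −0.58 ± 0.13 for Cyp2d26 (0.0034). The additional calls were Cyp2a4, 0.59 ± 0.15 (edgeR adjusted p = 0.0121), and Cyp2j5, −0.27 ± 0.08 (0.0217). Without nicotinamide-fed replicate 1, 8 members passed (7.23% of all genes), with Cyp2d9 added (adjusted p = 0.0465). Cyp2c23 alone had groups that did not overlap (2.86% of the members, where 2.21% of all genes did not). The Cyp2j5 call was lost in 5 of 33 alternatives, with an adjusted p up to 0.0656 without young replicate 2.

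Cyp4a14, an inducible fatty acid hydroxylase and a textbook target of PPARα, passed in no comparison and varied between animals of every group. It had 9.86, 35.6 and 70.7 CPM (lowest, median, highest) in young, 20.7, 35.6 and 76.0 CPM in old and 10.4, 18.4 and 158 CPM in nicotinamide-fed kidneys. The highest value was nicotinamide-fed replicate 1. The log2 fold change of nicotinamide-fed over old kidneys was 0.03 ± 0.55 (edgeR adjusted p = 0.997) and −0.85 without that kidney (edgeR adjusted p = 0.625).

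Within groups, the level of Cyp4a14 moved with that of Cyp4a10. Over 22 kidneys, with group means of log2(CPM + 1) removed, Cyp4a10 and Cyp4a14 correlated with Pearson r = 0.801 (permutation p adjusted over 6 pairs, 0.00012) and Spearman rho = 0.801 (adjusted permutation p = 0.00018). It was 0.803 without the 2 kidneys farthest from the median of Cyp4a10 (old replicate 6 and nicotinamide-fed replicate 1). Within young, old and nicotinamide-fed kidneys r was 0.916, 0.760 and 0.804. The points of each pair share a library.

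Cyp4a14 and Cyp4b1, both fatty acid hydroxylases, went in opposite directions (r = −0.638, adjusted permutation p = 0.0135; rho = −0.455, adjusted permutation p = 0.0614). That relation rests largely on nicotinamide-fed replicate 1. Without it r was −0.306 (adjusted permutation p = 0.141), and without it and young replicate 2 r was −0.322. By group, r was −0.215 in young, −0.273 in old and −0.905 in nicotinamide-fed kidneys. Cyp7b1 gave r = 0.104 with Cyp2e1 and 0.275 with Cyp4b1 (rho −0.199 and −0.077; adjusted permutation p of r 0.685 and 0.347). Both signs turned without nicotinamide-fed replicate 1, to r = −0.447 with Cyp2e1 and −0.408 with Cyp4b1 (adjusted permutation p = 0.0822 and 0.106). Within young, old and nicotinamide-fed kidneys r was −0.634, −0.209 and 0.454 with Cyp2e1, and −0.680, −0.460 and 0.689 with Cyp4b1. The 6 pairs were chosen with earlier results of these data known.

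**Figure D4:**
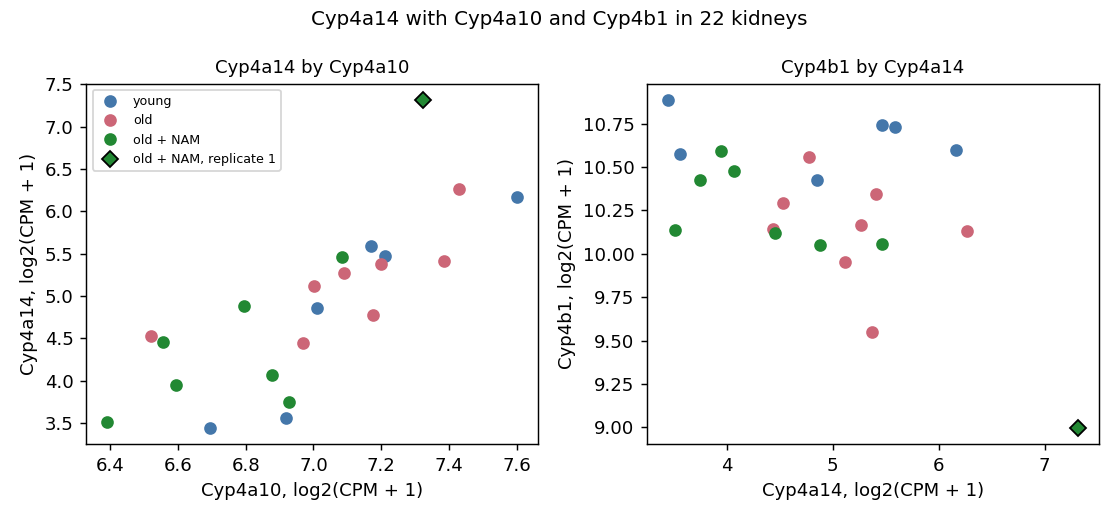
Levels of Cyp4a14 against Cyp4a10 and of Cyp4b1 against Cyp4a14 as log2(CPM + 1), not centred on group means; each point is 1 of 22 kidneys, coloured by group, with nicotinamide-fed (NAM) replicate 1 as the black-edged diamond. Cyp4a14 rises with Cyp4a10 (r = 0.801 after group means were removed), and the diamond is the highest kidney for Cyp4a14 and the lowest for Cyp4b1.

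Genes that serve the P450 enzymes were counted next, each list given by its calls in the same fits, in which 3.15% of all tested genes fell and 3.90% rose between young and old kidneys. Of 8 electron donors, 3 fell between young and old kidneys: the reductase Por (296 ± 23.4 to 244 ± 19.5 CPM, −0.28 ± 0.09, edgeR adjusted p = 0.0431), cytochrome b5 Cyb5a (−0.37 ± 0.11, 0.0287) and its mitochondrial form Cyb5b (−0.29 ± 0.08, 0.0242). Of 13 genes of haem synthesis and breakdown, Cpox, an oxidase of the haem pathway, fell (−0.59 ± 0.11, edgeR adjusted p = 0.00116). Of 17 tested receptors and regulators, Hnf4a, a nuclear receptor of proximal tubule and liver, fell (−0.32 ± 0.08, edgeR adjusted p = 0.012), while Ppara (−0.11 ± 0.14), the xenobiotic receptor Nr1i2 (−0.02 ± 0.35) and the aryl hydrocarbon receptor Ahr (−0.01 ± 0.33) did not pass, and Nr1i3 had too few reads. Hnf4a stood in the proximal tubule list too. The median log2 fold changes of these lists were −0.19, −0.14 and −0.11.

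Of 8 tested epoxide hydrolases and eicosanoid enzymes, Ephx1, the microsomal hydrolase, rose (0.54 ± 0.15, edgeR adjusted p = 0.0228), and Ephx2, the soluble hydrolase that opens arachidonic acid epoxides, fell from 395 ± 42.5 to 296 ± 31.2 CPM (−0.42 ± 0.11, edgeR adjusted p = 0.0171). Its young kidneys (332 to 451 CPM) lay above all old kidneys (239 to 328 CPM). Of 10 genes that depend on androgen in mouse kidney, 5 fell: Hsd11b1, Gusb, Acsm3, Srd5a2 and Slc22a30 (median of the list −0.70), where 3.15% of all genes fell. Of the proximal tubule markers, 2 of 10 for S1 and S2 (Hnf4a and Gatm) and 4 of 8 for S3 (Slc5a8, Acsm3, Atp11a and Slc22a30) fell; Acsm3 and Slc22a30 stand in the androgen list too. Cyp51, the sterol demethylase outside the rule, fell (−0.59 ± 0.13, edgeR adjusted p = 0.00537), and 0 of 3 tested genes of the aryl hydrocarbon battery passed. Between nicotinamide-fed and old kidneys, 0 genes passed in each of these lists. The part of these changes in the P450 results was not tested.

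The 62 members that were not tested had few or no reads, up to 135 over all kidneys (Cyp4f14). Of these, 30 had 0 reads in all libraries. For the 12 of them that share no end word with another gene, this allows up to 0.0215 CPM over the pooled libraries (3 counts of their total, counting error only). The other 18 share end words with another gene, from 0.855% in Cyp3a59 to 100% in Cyp3a41a and Cyp3a41b, which match each other. How reads that align to several genes were treated is not known, so no such limit is given for these 18. Among steroid hormone enzymes, Cyp11b1, Cyp11b2, Cyp19a1 and Cyp21a1 had 0 reads, Cyp11a1 had 5 and Cyp17a1 had 25. The family 3 genes, the main drug oxidases of liver, had reads in 4 of 9 members, with Cyp3a41a and Cyp3a41b among those without. Cyp7a1, the rate-limiting enzyme of bile acid synthesis, had 8 reads and the vitamin D hydroxylase Cyp2r1 had 122.

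With no filter on low counts, edgeR called 0 of the 32 members that had reads but were not tested, in each of the 3 comparisons. In those fits 4.63% of all genes passed between old and young, 0.0268% between nicotinamide-fed and old and 5.85% between nicotinamide-fed and young kidneys. At an unadjusted p below 0.05 there were 9, 10 and 6 of the 32. The share of all genes at that unadjusted level was not counted in these fits. Each of the 32 had at most 135 reads over all kidneys, so these counts are not read as a result about them. The inducible drug oxidase Cyp2b10 had 124 reads, with 0.318 to 3.00 CPM in young, 0.363 to 1.61 CPM in old and 0 to 1.89 CPM in nicotinamide-fed kidneys. Of the 8 nicotinamide-fed kidneys, 7 lay below every old kidney, 4 of 8 had a read, and replicate 3 was above every old kidney. The old kidneys had only 2 to 9 reads each, so these positions rest on very few reads. The difference from old kidneys did not pass (log2 fold change −1.65, edgeR adjusted p = 0.384). Cyp2b10 was singled out after its values were seen.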

How the data were processed

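Raw read counts per mouse Ensembl gene were deposited by the authors for 22 kidneys, made with STAR and HTSeq per the submitters' processing notes; for versions, strand setting and treatment of PCR copies, the sources used here give nothing. Those notes name GRCh38, a human build, while the identifiers are of mouse, so the upstream sequences and their coordinates were taken by symbol from RefSeq (GRCm38.p6), which gave one for 75 of the 97 members. Symbols came from GENCODE M21. The entry for reads aligned to several places was 0 in all columns, which does not show how such reads were treated, and 0 columns lacked a sample. Reads in no gene (19.1% to 24.7%) were left out of library sizes.

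After filterByExpr (minimum count 10, minimum total 15, smallest group 6), 14683 genes remained, holding 99.75% of counts. The edgeR 4.0.16 quasi-likelihood model was fitted once to all 22 libraries, with TMM factors (0.939 to 1.15) and robust dispersions, tested two-sided, with Benjamini-Hochberg adjustment over all tested genes and a threshold of 0.05. The SE was obtained by dividing the log2 fold change by the root of F. DESeq2 1.42.0, limma 3.58.1 (voom), edgeR without robust dispersions, other scalings and filters, only the groups compared, a block for replicate number, leaving out each library, and leaving out 4 kidneys together (young replicate 6, old replicate 7, nicotinamide-fed replicates 1 and 7) were alternatives, 33 in all. The scripts were tested on simulated data. No library was a copy of another in its own group: over the 71 within-group pairs, chi-square divided by its degrees of freedom was 5.33 to 35.6. Pairs from different groups were not searched for copies in this way. The 20 same-numbered pairs had correlations of −0.101 to 0.0674 and 0 exceeded 0.1, so numbers were not treated as pairs.

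Named members are those past the threshold in any comparison, the 15 most abundant, the 5 of lowest p in each comparison and Cyp4a14, Cyp7b1 and Cyp2e1; other members were named after their values were seen. Named genes of the 16 lists are those past the threshold and Por, Ppara, Nr1i2, Nr1i3, Ahr, Ephx1 and Ephx2. The members and lists were chosen with earlier results of these data known. The adipocyte, urothelial, liver and adrenal marker lists had 0, 0, 1 and 0 genes called between old and young kidneys. Correlations used 100000 permutations within groups. Of the 6 pairs of genes correlated, those not given in the text, and 1 gene list, are not reported here; the adjustment is over all 6.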

Additional observations from a re-analysis of the deposited data

Results flagged for a closer look

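In 57 groups of kidneys, the named members were searched for a kidney far from the rest of its group. The limit used is one that chance passes in about 1 in 20 groups where values are normally distributed, which was not tested for these levels, and 4 were found. Nicotinamide-fed replicate 1 had 76.5 CPM of Cyp2j13, where the other 7 kidneys had 172 to 254 CPM. It had 158 CPM of Cyp4a14, where the others had 10.4 to 43.2 CPM. It had 510 CPM of Cyp4b1, where the others had 1060 to 1545 CPM. Old replicate 2 had 76.0 CPM of Cyp4a14, where the other old kidneys had 20.7 to 41.5 CPM.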

How the results depend on the processing

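The count of members called between old and young kidneys was 5. It was 10 with only both groups compared in the fit and 10 without the 4 kidneys, and it ranged from 4 to 9 when single libraries were left out, with 9 without nicotinamide-fed replicate 1. With DESeq2, limma-voom and edgeR without robust dispersions it was 6, 7 and 7, beside 1282, 874 and 1031 of all genes. With the replicate number as a block, 4 members passed between old and young kidneys (Cyp1b1 was lost), 5 between nicotinamide-fed and young kidneys (Cyp2d12 and Cyp2j5 were lost) and 0 between nicotinamide-fed and old kidneys, beside 904, 1081 and 3 of all genes; the numbers did not pair the libraries. In 4 of 40 cases a library matched its own number best. Cyp2c23, Cyp2d12, Cyp2a5 and Cyp2d26 kept their direction and their call between old and young kidneys in all 33 alternatives. The other counts stayed within 1.5 times, at 5 to 8 between nicotinamide-fed and young kidneys. The correlation of Cyp4a14 with Cyp4b1 ranged from −0.693 to −0.306 when single libraries were left out and was −0.29 without the 4 kidneys (adjusted permutation p = 0.262). Without the 4 kidneys, Cyp7b1 correlated negatively with Cyp2e1 (−0.541) and with Cyp4b1 (−0.560), both with an adjusted permutation p = 0.0312. Leaving out nicotinamide-fed replicate 1 alone turned both signs already (−0.447 and −0.408, adjusted permutation p = 0.0822 and 0.106), and no other single library did. A sign change of a fold change that passed on neither side was not counted as a change. Depth limits the 62 members that were not tested.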
